A study of Rattus norvegicus with 23 samples.

Results

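The genes described here are 35 that mark macrophages or serve them as phagocytes, among them Cd163, Cd68, Clec4f, Cd5l, the C1q chains, Csf1r and Lyz2. They were listed by name, and 31 of the 35 had a probe set of their own among the 14218 genes measured. No probe set is named here for the other 4, which are Marco and Msr1 (class A scavenger receptors), Spi1 (the transcription factor PU.1) and Slc11a1 (a metal transporter of the phagosome), and these are not analysed here. The 23 Affymetrix arrays of rat liver cultures fell into 8 groups. Hepatocytes and liver sinusoidal endothelial cells (LSECs) came from female Lewis rats, whereas the Kupffer cells (KCs), the resident macrophages of the liver, were bought as frozen rat cells.

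The models with KCs, 3DHLK, held a layer of hepatocytes, a polymer membrane, LSECs and KCs. On day 12 they were taken apart with magnetic beads carrying SE-1 antibodies for LSECs and then CD163 antibodies for KCs, and they gave the groups Hep_3D_HLK (3 arrays), KC_3D_HLK (2 arrays, the samples whose RNA was of sufficient quality) and LSEC_3D_HLK (3 arrays). The 3 arrays of KC_pre_3D_HLK are KCs on day 3, labelled as before the model, and are called KC monolayers. The cultures to which no KCs were added gave 4 groups of 3 arrays each on day 12. These are LSEC_3D_HL and Hep_3D_HL, the fractions of 3DHL models of hepatocytes and LSECs, CS, hepatocytes in a collagen sandwich, and HM, hepatocytes in a monolayer. Their 12 arrays give the background of each probe set, the level it shows where no KCs were put in. In what follows, without KCs means only that none were added. All levels are log2 values, so a difference of 1 is a doubling of signal. Whether replicates came from separate animals or cultures is not in the labels, so the tests see only how far these arrays spread, which may be technical.

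KCs line the sinusoids of the liver, where they take up bacteria, spent red blood cells and debris. Scavenger and lectin receptors bind the particles, complement C1q coats them, adaptor proteins with immunoreceptor motifs pass the signal on, and an oxidase and lysosomal enzymes destroy what was taken up. Survival of the cells depends on the CSF1 receptor, and PU.1 is the factor that drives much of the programme. Isolated KCs are known to lose part of their identity in culture.

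Of the 31 measured genes, 23 had a promoter in the RefSeq table of the build GRCr8, covering 250 bases before and 50 bases after the start it uses. For some genes, among them Lyz2, Cd14 and Csf1r, that start lay inside the annotated gene. The purine core GAGGAA bound by PU.1 was searched on both strands and was present in 15 of the 23 promoters (65.2%), against 27.5% of all 27457 promoters of the table and 26.8% of the 11734 promoters of the genes tested here. The AP-1 motif TGACTCA, searched on both strands, was present in 2 of the 23 (8.70%), against 4.50% of all promoters. The motifs do not overlap each other. The promoters of 4 genes are printed because their genes stand at the ends of what follows. Mrc1 and Lyz2 had the largest differences in the hepatocyte fraction, Cd5l the largest in the KC-labelled fraction, and Clec4f, the lectin most particular to rodent KCs, was at its background level in the hepatocyte fraction. Capitals mark the GAGGAA core or its complement. These matches are a description of the letters and no evidence of binding.
Mrc1, chr17:82157475-82157774, plus strand: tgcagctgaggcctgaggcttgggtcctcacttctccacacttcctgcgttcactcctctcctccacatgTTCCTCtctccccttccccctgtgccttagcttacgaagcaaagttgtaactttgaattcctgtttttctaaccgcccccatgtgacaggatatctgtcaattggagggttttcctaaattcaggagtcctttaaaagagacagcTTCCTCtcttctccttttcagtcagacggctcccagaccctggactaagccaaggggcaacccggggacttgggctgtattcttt
Lyz2, chr7:54797962-54798261, minus strand: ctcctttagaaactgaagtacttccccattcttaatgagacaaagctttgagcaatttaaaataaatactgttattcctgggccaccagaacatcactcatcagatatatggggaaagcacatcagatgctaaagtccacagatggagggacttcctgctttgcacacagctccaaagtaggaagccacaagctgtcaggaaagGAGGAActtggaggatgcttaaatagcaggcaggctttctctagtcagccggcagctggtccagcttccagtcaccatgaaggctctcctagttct
Cd5l, chr2:175088665-175088964, plus strand: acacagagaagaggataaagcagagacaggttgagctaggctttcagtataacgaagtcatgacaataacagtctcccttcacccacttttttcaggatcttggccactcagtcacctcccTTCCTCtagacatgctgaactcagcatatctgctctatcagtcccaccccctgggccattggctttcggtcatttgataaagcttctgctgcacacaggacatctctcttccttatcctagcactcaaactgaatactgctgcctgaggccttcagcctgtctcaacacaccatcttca
Clec4f, chr4:117696358-117696657, minus strand: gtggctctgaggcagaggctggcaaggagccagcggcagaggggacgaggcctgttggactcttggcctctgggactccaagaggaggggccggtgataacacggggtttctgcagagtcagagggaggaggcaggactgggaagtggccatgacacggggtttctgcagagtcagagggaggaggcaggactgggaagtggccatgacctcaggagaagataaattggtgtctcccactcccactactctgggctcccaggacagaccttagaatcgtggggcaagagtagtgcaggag
The cores lay 180 and 35 bases before the start used for Mrc1, 46 bases before that for Lyz2 and 129 bases before that for Cd5l. The core of Lyz2 fell within its annotated gene. The Clec4f window held none, which says only that these letters are not in this stretch.

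Markers of the labelled cell types were examined first. The 9 measured hepatocyte markers, averaged per array, had a mean of 12.83 in KC_3D_HLK and 7.83 in the KC monolayers, and all 9 were higher in KC_3D_HLK. That level was close to the 13.11 of Hep_3D_HLK. The Y-linked gene Eif2s3y read 3.52 and 3.41 in KC_3D_HLK, against 8.36 to 9.56 in the KC monolayers, a change of -5.67 (adjusted p = 9e-16). The same transcript read 8.18 to 8.46 in Hep_3D_HLK and no more than 3.56 in any group without KCs, a change of 4.76 between Hep_3D_HLK and Hep_3D_HL (adjusted p = 1.6e-13). Eif2s3y was 1 of 3 measured genes in a list of Y-linked and inactive X transcripts. The other 2 were higher in KC_3D_HLK than in the KC monolayers, by 1.92 and 5.77. Between Hep_3D_HLK and Hep_3D_HL they changed by -0.07 and -0.57, and 1 of them was called lower. Xist is the only transcript of that list that is not Y-linked, so at least 1 of the other 2 was Y-linked. Between KC_3D_HLK and the KC monolayers that gene moved against Eif2s3y. By the hepatocyte markers and Eif2s3y, the arrays labelled KC_3D_HLK go against their label, and they are called the KC-labelled fraction. The LSEC groups go against theirs as well, since the 9 endothelial markers averaged 6.21 in LSEC_3D_HLK and 5.96 in LSEC_3D_HL, against 5.96 in Hep_3D_HL, and the hepatocyte markers averaged 13.70 and 13.50 in those LSEC groups. In extracts of many cells, fewer macrophages and less RNA of a gene per macrophage cannot be told apart.

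All 31 genes were higher in the KC monolayers than in the background, where 27.4% of all genes tested were higher and 48.4% lower, and the median log2 difference was 5.05, against -0.24 over all genes. Differences ran between 1.09 for Cd14, the LPS co-receptor, and 9.02 ± 0.16 (SE) for Cd5l, a secreted scavenger-receptor protein of tissue macrophages (limma, adjusted p = 6.47e-22). For 30 of the 31 genes every KC monolayer array stood above all 12 background arrays, as did 15.1% of all genes. Cd14 was the exception, since its lowest KC monolayer array read 11.18 and the highest collagen sandwich array 11.20. Markers of other cells were higher in the same arrays, with 7 of 9 endothelial, 7 of 8 lymphocyte and 4 of 6 neutrophil and mast cell markers higher and none lower, and their median differences were 1.37, 0.70 and 0.94. The collagen gene Col1a1 averaged 11.10 in the KC monolayers. The part of these cells was not tested. The KC monolayers had the highest group mean for all 31 macrophage genes. The next highest group was Hep_3D_HLK for 16 genes, KC_3D_HLK for 8, LSEC_3D_HLK for 3, Hep_3D_HL for 3 and CS for 1.

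**Figure D1:**
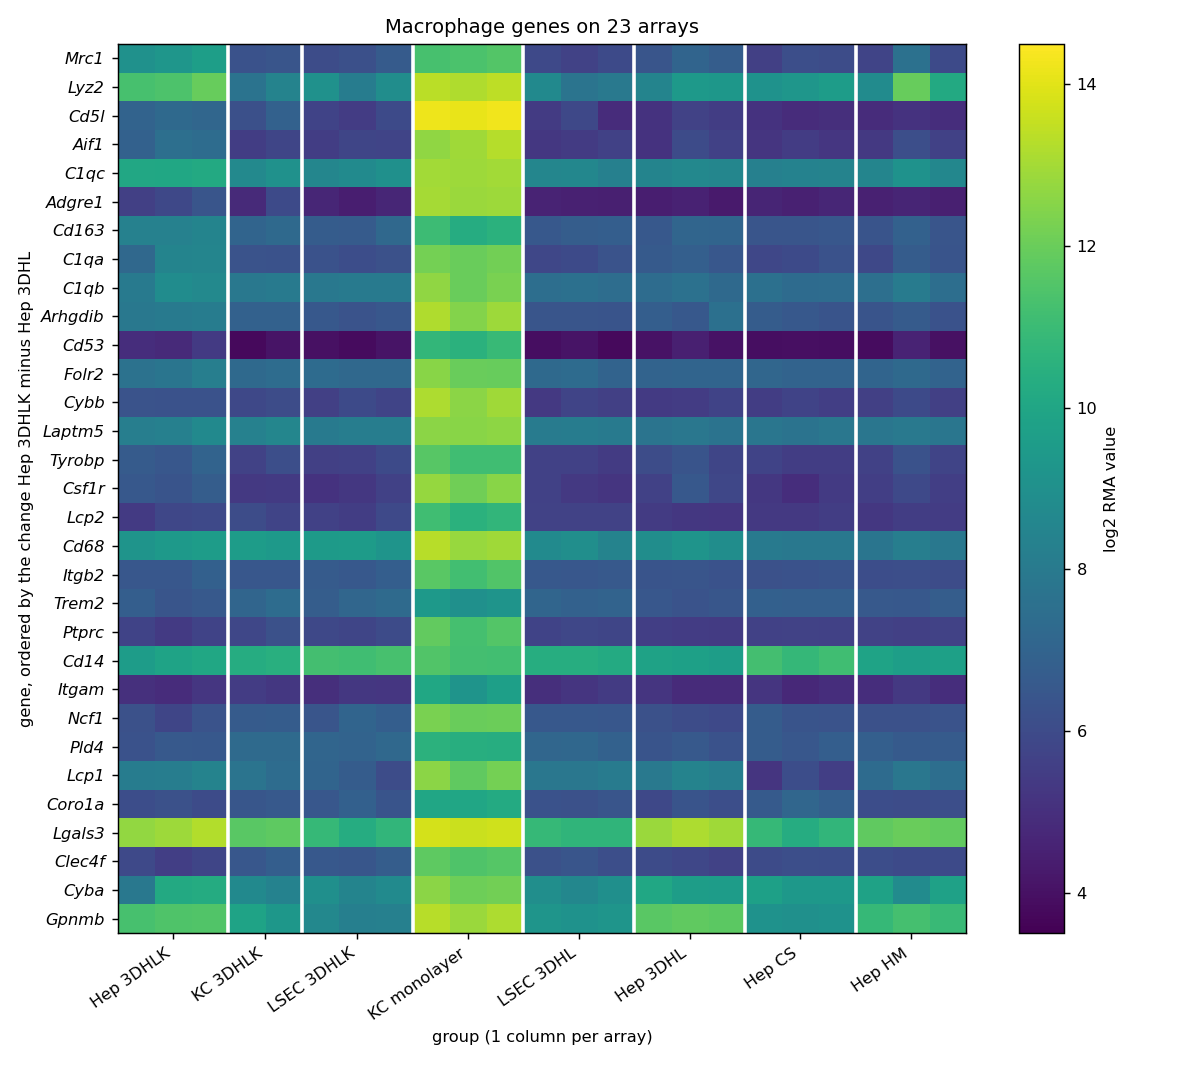
Log2 level of the 31 macrophage genes (rows, ordered by their change in the hepatocyte fraction) on each of the 23 arrays (columns, by group). The KC monolayers have the highest group mean for all 31 genes, and the 2 columns of the KC-labelled fraction lie below all KC monolayer columns for each of them.

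The KC-labelled fraction on day 12 was compared with the KC monolayers of day 3 to learn which macrophage transcripts persisted in the model. All 31 genes were lower in the fraction, where 20.8% of all genes tested were lower and 44.5% higher. The median log2 change was -4.90, against 0.27 over all genes, and the fold difference ran between 1.90 for Cd14 and 203 for Cd5l. Cd5l read 6.18 and 6.91 in the KC-labelled fraction, against 14.22, 14.15 and 14.25 in the KC monolayers, a change of -7.66 ± 0.23 (SE, adjusted p = 2.04e-17). Adgre1, which encodes the surface receptor F4/80, read 4.81 and 5.95 in the fraction, against 13.00, 12.84 and 12.90 in the monolayers, and Csf1r, the receptor for the survival factor CSF1, read 5.33 and 5.38, against 12.75, 12.13 and 12.56. Changes were -7.53 ± 0.23 for Adgre1 (adjusted p = 2.57e-17) and -7.13 ± 0.23 for Csf1r (adjusted p = 6.14e-17).

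Both arrays of the fraction lay below all KC monolayer arrays for all 31 macrophage genes, as did those of 20.7% of all genes. Large differences were also found for Aif1, an actin-bundling protein of macrophages (-7.33), for Cybb, the catalytic subunit of the phagocyte oxidase (-6.92), and for the leukocyte tetraspanin Cd53 (-6.82). Csf1r, Aif1 and Cd53 did not differ from the cultures without KCs in the fraction, so their differences are limited by that background and are lower bounds. With the probe sets used, the smallest changes were those of Cd14, Trem2 and Lgals3. Other probe sets gave -3.65 for Trem2, -0.75 for Cyba (-3.72 with the one used) and -1.13 for Aif1, and larger changes for Cybb (-8.07), Ptprc (-7.39) and Laptm5 (-6.82). Cd14 read 10.31 and 10.45 in the KC-labelled fraction, against 11.53, 11.22 and 11.18 in the KC monolayers, a change of -0.93 ± 0.15 (adjusted p = 1.27e-05). Trem2, a lipid-sensing receptor, and Lgals3, the lectin galectin-3, each changed by -1.96. Cd163, the haemoglobin scavenger receptor whose antibody was on the beads, read 7.03 and 7.26 in the fraction, against 11.06, 10.30 and 10.54 in the monolayers, a change of -3.48 ± 0.21 (adjusted p = 4.24e-12). The hepatocyte marker level given above differed between the same groups, as did the day, and their part in the result was not tested.

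What remained in the KC-labelled fraction was measured against the background arrays. Differences from background are taken from the mean of its 4 groups, and their SE leaves out the spread between these cultures. Of the 31 genes, 12 were higher than the background, where 20.6% of all genes were higher, and 2 were lower, where 20.8% of all genes were lower. The median log2 difference was 0.31, against 0.04 over all genes. Of the 12 genes, only Cd5l and Adgre1 were also called higher in the KC-labelled fraction than in LSEC_3D_HLK. The lower quartile of all probe sets was 6.06 and 6.16 in the fraction, against 5.89 to 6.01 on the background arrays. Interquartile ranges were 2.94 and 2.71, against 3.03 to 3.34, so low levels in general read higher in the fraction. For 18 of the 31 genes all 4 background group means were under 7. The part of this shift in the 12 calls was not tested. Expressed on the linear scale as a share of the KC monolayer signal above background, the remainder had a median of 0.516% and a range of -6.96% to 10.7%. Without replicate 2 of the KC-labelled fraction, the 5 genes Cd5l, Cd68, Pld4, Laptm5 and Lcp2 were higher and none was lower, where 6.34% of all genes were higher and 10.6% lower.

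Cd5l stood highest above its background. It read 6.18 and 6.91 in the KC-labelled fraction, against a lowest, median and highest of 4.88, 5.10 and 5.88 in the background, a difference of 1.35 ± 0.19 (adjusted p = 1.52e-05), and this was 0.301% of the KC monolayer signal. Cd68, a lysosomal glycoprotein of macrophages, read 9.57 and 9.40 in the fraction, against 7.79, 8.32 and 9.19 in the background, a difference of 1.08 ± 0.15 (adjusted p = 8.31e-06) or 4.72% of the monolayer signal. Both arrays of the fraction lay above all 12 background arrays for these genes. Adgre1 read 4.81 and 5.95, against 4.30, 4.52 and 4.68 in the background (0.85 ± 0.19, adjusted p = 0.00164). Its arrays in the fraction differed by more than the whole background range, and only replicate 2 stood well clear. Clec4f, a galactose-binding lectin of rodent KCs, read 6.48 and 6.77, against 5.69, 6.07 and 6.41 in the background (0.57 ± 0.12, adjusted p = 0.000847), or 1.06% of the monolayer signal. Without replicate 2 of the KC-labelled fraction the calls for Adgre1 and Clec4f were lost.

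Among genes with higher background levels, Pld4, an enzyme of the phospholipase D family found in endosomes, read 7.32 and 7.32 in the KC-labelled fraction, against a lowest, median and highest of 6.28, 6.66 and 7.18 in the background (0.62 ± 0.11, adjusted p = 0.00029). Laptm5, a lysosomal membrane protein of blood-derived cells, read 8.32 and 8.56, against 7.67, 7.84 and 8.14 in the background (0.57 ± 0.11, adjusted p = 0.000391). Trem2 read 7.10 and 7.37, against 6.31, 6.79 and 7.08 in the background (0.51 ± 0.13, adjusted p = 0.00376). These 3 genes did not overlap with the background, though for Trem2 the gap was narrow. Lcp2, an adaptor protein of blood cells, read 6.04 and 5.76, against a background range of 5.25 to 5.69 (0.45 ± 0.14, adjusted p = 0.0178). Ptprc, the leukocyte phosphatase CD45, read 5.83 and 6.21, against 5.41 to 5.85 in the background (0.39 ± 0.13, adjusted p = 0.0189). The calls for Laptm5, Lcp2 and Ptprc were lost with another probe set of each gene. In all, 8 genes had both arrays of the fraction above all 12 background arrays, as did 14.7% of all genes.

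Cd163 read 7.03 and 7.26 in the KC-labelled fraction, against a lowest, median and highest of 6.34, 6.54 and 7.08 in the background, a difference of 0.51 ± 0.18 (adjusted p = 0.0279) or 2.84% of the monolayer signal. Cybb read 5.89 and 6.06, against 5.33, 5.58 and 5.95 in the background (0.38 ± 0.14, adjusted p = 0.0362), and C1qc, a chain of the complement opsonin C1q, read 8.68 and 9.08, against 8.27, 8.52 and 9.10 (0.35 ± 0.14, adjusted p = 0.0458). These groups overlapped. The call for Cd163 was lost without either replicate of the KC-labelled fraction. Cybb kept its call in 13 of the 22 alternatives run and C1qc in 11 of 22. Both genes that were lower also carried a wide background. Lyz2, the lysozyme of macrophages, read 7.68 and 8.41, against 7.72, 9.18 and 11.96 in the background (-1.16 ± 0.45, adjusted p = 0.0442, kept in 10 of 22 alternatives). Gpnmb, a membrane glycoprotein of the endolysosome, read 9.86 and 9.33, against 9.03, 10.05 and 11.82 in the background (-0.66 ± 0.14, adjusted p = 0.000867). It was lower than that mean but above the means of CS (9.08) and LSEC_3D_HL (9.19).

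The remaining 17 genes did not differ from the background by the test, with differences between -0.84 for Cyba and 0.44 for C1qb. Among them were genes with large levels in the KC monolayers. The mannose receptor Mrc1 differed by 0.09 (adjusted p = 0.819), Csf1r by -0.21 (adjusted p = 0.381) and Aif1 by 0.14. For Csf1r the remainder came to -0.115% of the monolayer signal, that is, none above background. Replicate 2 of HM stood apart among the background arrays, with the highest value of the HM arrays for 23 of the 31 genes and of all 12 arrays for 7. When it was left out, a choice made after seeing the data, 11 genes in place of 8 had both arrays of the KC-labelled fraction above the background, with C1qb, C1qc and Cybb added. The endothelial markers moved with these differences, since 7 of 9 were higher in the KC-labelled fraction than in the background. Their mean was 6.85 to 6.90 in the fraction, against 5.65 to 6.21 over the background arrays, with Lyve1 2.28 and Fcgr2b 1.83 higher. Lymphocyte markers were higher for 4 of 8 and lower for none, with a median difference of 0.39, and neutrophil and mast cell markers for 3 of 6 and lower for none, with a median of 0.31, next to the macrophage median of 0.31. Hepatocyte markers were lower for 7 of 9. The part of these cells in the macrophage differences was not tested.

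**Figure D2:**
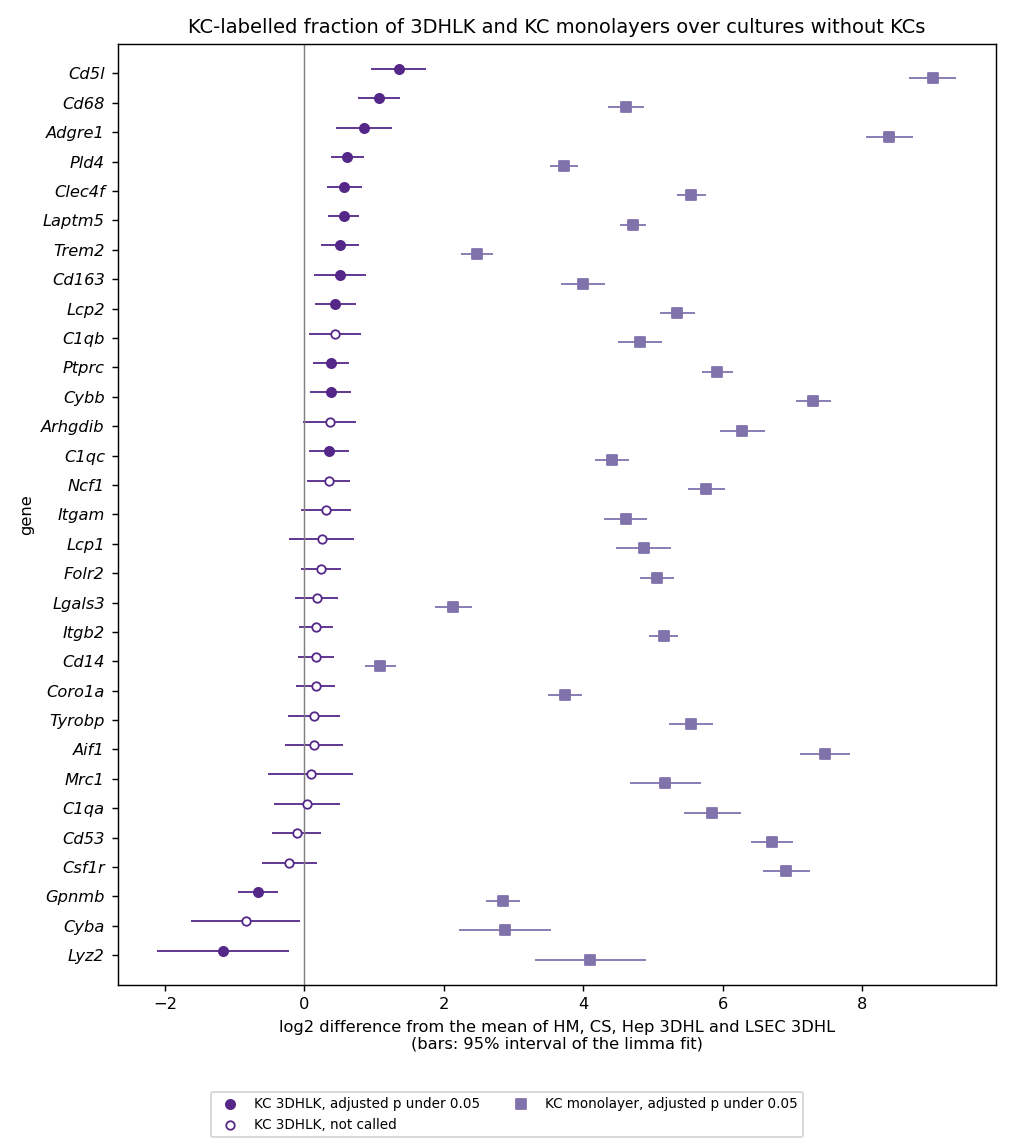
Log2 difference from the mean of the 4 groups without KCs, with 95% intervals, for the KC-labelled fraction (circles) and the KC monolayers (squares); filled symbols passed the adjusted p threshold of 0.05. The circles lie between -1.16 and 1.35, whereas the squares lie between 1.09 and 9.02.

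The hepatocyte fraction of 3DHLK was compared with that of 3DHL to learn which macrophage transcripts appear in that fraction once KCs are part of the model. Of the 31 genes, 15 were higher in Hep_3D_HLK, where 7.72% of all genes tested were higher, and none was lower, where 3.76% were lower. The median log2 change was 0.54, against -0.08 over all genes. For 16 genes all Hep_3D_HLK arrays lay above all Hep_3D_HL arrays, as did 14.0% of all genes, and for 13 they lay above all 12 background arrays, as did 6.98% of all genes. Without HM replicate 2 the 13 became 15, with Lyz2 and C1qb added.

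Among surface receptors and secreted proteins, Mrc1, Cd163, Cd5l, Adgre1 and Folr2 were higher, whereas the receptors Clec4f, Cd14 and Trem2 did not pass the test. Mrc1, which binds mannose on microbes and glycoproteins, read 9.08, 9.30 and 9.68 in Hep_3D_HLK, against 6.42, 7.03 and 6.74 in Hep_3D_HL. The groups were more than 2 units apart, and the level was 6.17-fold higher (2.62 ± 0.31, adjusted p = 2.32e-06), which amounts to 20.9% of the KC monolayer signal above that of Hep_3D_HL. Cd163 read 8.34, 8.32 and 8.46 in Hep_3D_HLK, against 6.55, 7.08 and 7.03 in Hep_3D_HL (1.49 ± 0.19, adjusted p = 6.74e-06), or 14.6% of the monolayer signal. Its Hep_3D_HLK arrays were nearly equal and did not overlap with any array without KCs. Cd5l read 6.99, 7.26 and 7.13, against 5.11, 5.65 and 5.49 in Hep_3D_HL (1.71 ± 0.21, adjusted p = 2.64e-06), or 0.514% of the monolayer signal. Adgre1 read 5.59, 5.89 and 6.42, against 4.43, 4.54 and 4.30 (1.55 ± 0.21, adjusted p = 1.04e-05), or 0.535%. Both were separated from Hep_3D_HL by more than 1 unit. Folr2, the folate receptor of tissue macrophages, read 7.66, 7.77 and 8.2, against 7.02, 7.05 and 7.06 (0.83 ± 0.15, adjusted p = 0.000424), again without overlap.

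All 3 chains of C1q, the opsonin that starts the classical complement pathway, rose together. C1qc read 10.11, 10.07 and 10.19 in Hep_3D_HLK, against 8.46, 8.62 and 8.56 in Hep_3D_HL, a 2.98-fold difference (1.58 ± 0.15, adjusted p = 7.44e-08). C1qa read 7.21, 8.47 and 8.49, against 6.62, 6.82 and 6.49 (1.42 ± 0.25, adjusted p = 0.000306). C1qb read 8.01, 8.85 and 8.69, against 7.40, 7.59 and 7.28 (1.09 ± 0.19, adjusted p = 0.000339). No chain overlapped between the groups, and replicate 1 of Hep_3D_HLK was the lowest array for C1qa and C1qb but not for C1qc. The shares of monolayer signal were 9.91% for C1qc, 3.92% for C1qb and 3.84% for C1qa.

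Lyz2, which cleaves bacterial cell walls, had the highest share of its monolayer signal, 25.7%. It read 11.31, 11.43 and 11.95 in Hep_3D_HLK, against 8.46, 9.45 and 9.33 in Hep_3D_HL (2.48 ± 0.48, adjusted p = 0.00102). The groups did not overlap, but HM replicate 2, a culture to which no KCs were added, read 11.96. The oxidase that makes superoxide in the phagosome was represented by 3 subunits. Its catalytic chain Cybb read 6.31, 6.28 and 6.29 in Hep_3D_HLK, against 5.38, 5.44 and 5.72 in Hep_3D_HL (0.78 ± 0.15, adjusted p = 0.000974). The partner chain Cyba changed by -0.29 and the cytosolic factor Ncf1 by 0.05, and neither passed the test. For Cyba, replicate 1 of Hep_3D_HLK read 7.89, against 10.19 and 10.28 in the other replicates.

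Of the adaptors and the proteins of the leukocyte skeleton and membrane, Aif1, Arhgdib, Cd53, Laptm5 and Tyrobp were higher, whereas Coro1a, Lcp1, Ptprc and Lcp2 did not pass the test. Aif1 read 6.91, 7.52 and 7.38 in Hep_3D_HLK, against 5.12, 6.0 and 5.61 in Hep_3D_HL (1.69 ± 0.22, adjusted p = 6.62e-06). Arhgdib read 7.89, 8.05 and 8.11, against 6.77, 6.55 and 7.56 (1.06 ± 0.20, adjusted p = 0.000614). Neither overlapped, although Hep_3D_HL replicate 3 came near for Arhgdib. Cd53 read 4.95, 4.82 and 5.39 in Hep_3D_HLK, against 4.05, 4.45 and 4.03 in Hep_3D_HL (0.88 ± 0.18, adjusted p = 0.00154). Laptm5 read 8.22, 8.31 and 8.70, against 7.74, 7.85 and 7.67 (0.66 ± 0.12, adjusted p = 0.000345). The lowest Hep_3D_HLK array was above the highest Hep_3D_HL array for both. Tyrobp, the signalling adaptor of Trem2 and other myeloid receptors, read 6.64, 6.48 and 7.0, against 6.07, 6.34 and 5.79 (0.65 ± 0.19, adjusted p = 0.0305). This was the weakest of the 15 calls and was kept in 9 of 13 alternatives.

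**Figure D3:**
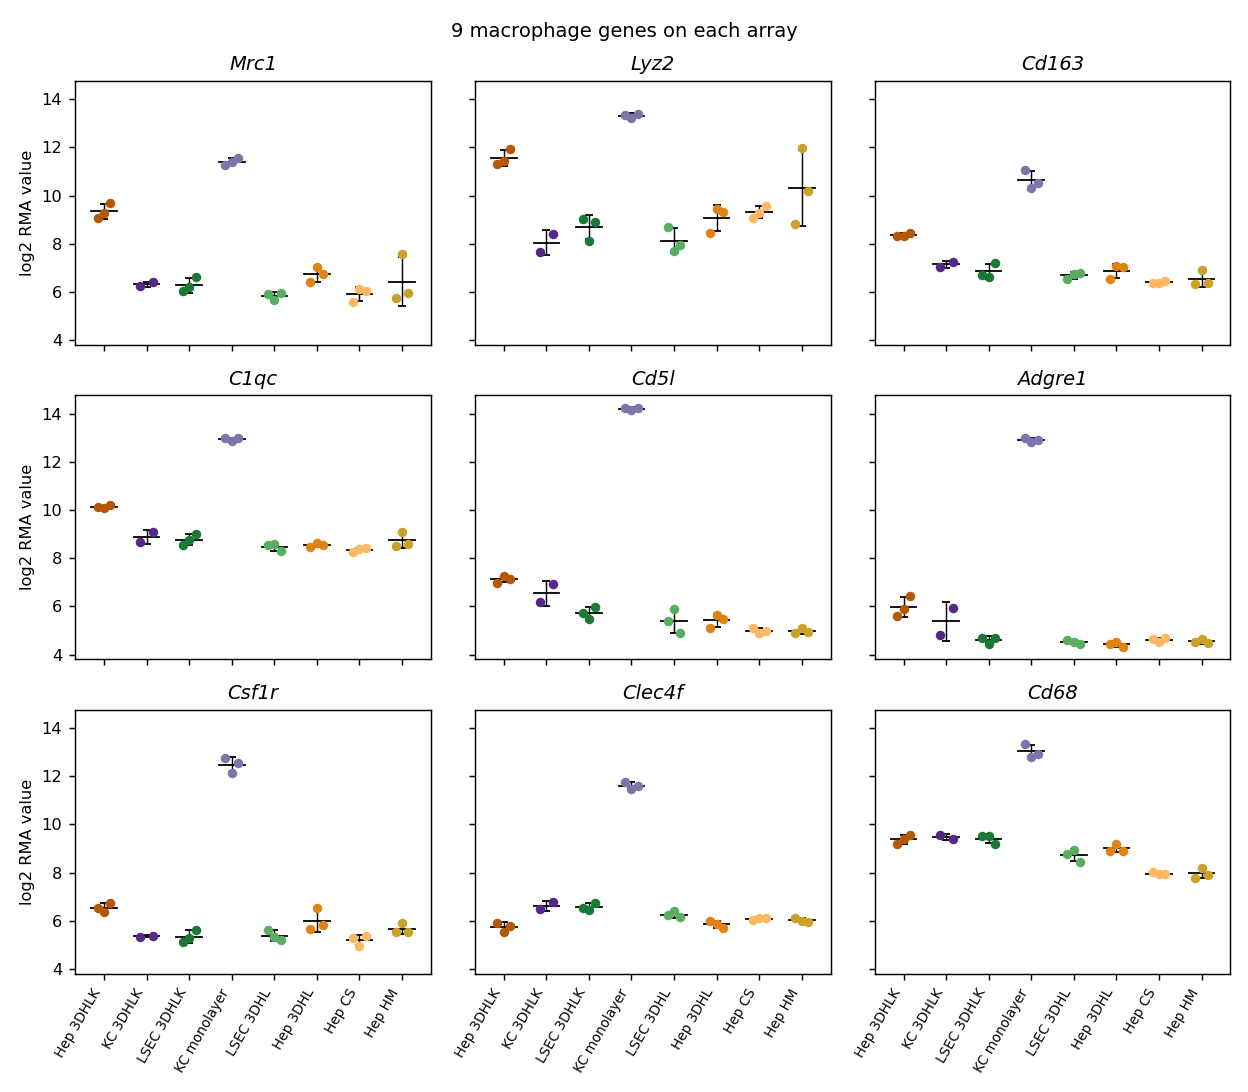
Log2 level of Mrc1, Lyz2, Cd163, C1qc, Cd5l, Adgre1, Csf1r, Clec4f and Cd68 on each array (points), with the group mean (line) and SD (bars). Mrc1 and Lyz2 lie higher in Hep_3D_HLK than in the KC-labelled fraction, and Clec4f and Cd68 do not.

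The other 16 genes did not pass the test in the hepatocyte fraction, and they included some of the best known KC markers. Clec4f read 5.91, 5.53 and 5.79 in Hep_3D_HLK, against 6.0, 5.85 and 5.69 in Hep_3D_HL, a change of -0.10 ± 0.13 with a 95% interval of -0.37 to 0.16 (adjusted p = 0.677). The groups overlapped, and in KC monolayers the same probe set read 11.47 to 11.76. Csf1r read 6.51, 6.36 and 6.75, against 5.64, 6.53 and 5.83 (0.54 ± 0.21, adjusted p = 0.0984), and Cd68 read 9.18, 9.41 and 9.56, against 8.90, 9.19 and 8.91 (0.38, adjusted p = 0.127). Each overlap came from 1 Hep_3D_HL array, replicate 2. Ptprc changed by 0.15 (adjusted p = 0.544), and the integrin chains Itgam and Itgb2, which form complement receptor 3, by 0.07 and 0.28. Lcp2 changed by 0.40, Trem2 by 0.16, Cd14 by 0.10, Pld4 and Lcp1 (an actin bundler of leukocytes) by 0.04, and the actin regulator Coro1a by 0.00. The high levels of Gpnmb (11.31, 11.48 and 11.53) and Lgals3 (12.70, 12.87 and 13.23) in Hep_3D_HLK stood beside equally high ones in Hep_3D_HL, 11.68, 11.82 and 11.73 for Gpnmb and 12.84, 13.15 and 12.93 for Lgals3. Their changes were -0.30 and -0.04.

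Shares of the KC monolayer signal thus varied widely between the genes of the hepatocyte fraction. The median over the 31 genes was 0.723% and the range -11.9% to 25.7%. Lyz2, Mrc1, Cd163 and C1qc lay between 9.91% and 25.7%. Between 1.34% and 3.92% lay C1qb, C1qa, Cd14, Folr2, Laptm5, Trem2, Cd68, Arhgdib, Tyrobp and Aif1. Between 0.434% and 0.896% lay Cd53, Lcp2, Itgb2, Adgre1, Csf1r, Cd5l and Cybb. Of these genes Cd14, Trem2, Cd68, Lcp2, Itgb2 and Csf1r had not passed the test, so shares of uncalled genes were as large as those of some called genes. A linear share of an array signal is a description of each probe set and compresses changes near background.

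Markers of other cells moved with the hepatocyte comparison. Among 10 markers of stellate cells and fibroblasts, 6 stood higher in Hep_3D_HLK, with a mean level of 10.11 to 10.18, against 8.01 to 8.42 in Hep_3D_HL, and the matrix proteoglycans Lum and Dcn differed by 4.95 and 3.80. The KC monolayers had a mean of 7.78 to 8.29 for the same markers. Of 9 endothelial markers 3 were higher and none lower, with Tek 2.29, Eng 1.71 and Fcgr2b 0.69 higher. None of the 9 hepatocyte or 8 lymphocyte markers changed, and of 6 neutrophil and mast cell markers only S100a8 did (0.78). The part of these cells in the macrophage changes was not tested.

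Set directly against each other, the hepatocyte fraction exceeded the KC-labelled fraction of the same models for most of the genes that differed. Of the 31 genes 17 were higher in Hep_3D_HLK, where 25.9% of all genes were higher, and 6 were lower, where 30.6% of all genes were lower. All Hep_3D_HLK arrays stood above both KC_3D_HLK arrays for 17 genes, as did 32.6% of all genes. The largest difference was that of Lyz2, which read 11.31, 11.43 and 11.95 in Hep_3D_HLK, against 7.68 and 8.41 in the KC-labelled fraction (3.51 ± 0.54, adjusted p = 1.95e-05). Mrc1 read 9.08, 9.30 and 9.68, against 6.26 and 6.40 (3.03 ± 0.35, adjusted p = 4.84e-07). Cd163 read 8.34, 8.32 and 8.46, against 7.03 and 7.26 (1.23 ± 0.21, adjusted p = 7.65e-05), so that the transcript of the bead target was higher in the fraction left after the bead separation. Csf1r was 1.19 ± 0.23 higher (adjusted p = 0.000219), C1qa 1.76, Aif1 1.63 and C1qc 1.24. Gpnmb (1.84) and Lgals3 (1.19) were also higher, but both were as high in Hep_3D_HL. Mean levels of Gpnmb and Lgals3 were lower in HM (11.02 and 11.90) and in CS (9.08 and 10.64) than in Hep_3D_HLK.

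The 6 genes that were lower in Hep_3D_HLK than in the KC-labelled fraction were Clec4f, Pld4, Trem2, Ncf1, Cd14 and Ptprc. Clec4f read 5.91, 5.53 and 5.79 in Hep_3D_HLK, against 6.48 and 6.77 (-0.88 ± 0.14, adjusted p = 3.29e-05). The others differed by -0.87 for Pld4, -0.65 for Trem2, -0.56 for Ncf1, -0.53 for Cd14 and -0.41 for Ptprc. With another probe set Trem2 was not called (0.16) and Ptprc was higher in Hep_3D_HLK (1.24). No value of Clec4f overlapped between the fractions. The lower quartile of all probe sets was 5.87 to 5.96 in Hep_3D_HLK, against 6.06 and 6.16 in the KC-labelled fraction, and the part of this shift was not tested. The count of higher genes was 11 without KC_3D_HLK replicate 1, and that of lower genes was 3 without KC_3D_HLK replicate 2, so these counts rest in part on single arrays. Markers of other cells differed between the same fractions. Of the stellate cell and fibroblast genes, 7 of 10 were higher in Hep_3D_HLK, with a median difference of 4.34. Endothelial markers were lower there for 7 of 9 and higher for 2, lymphocyte markers were lower for 6 of 8, and neutrophil and mast cell markers were lower for 4 of 6 and higher for 1. The part of these cells was not tested.

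In the LSEC-labelled fraction few macrophage genes differed when KCs were present. Of the 31 genes 2 were higher in LSEC_3D_HLK than in LSEC_3D_HL, where 3.58% of all genes were higher, and 2 were lower, where 3.89% of all genes were lower. Cd14 read 11.23, 11.12 and 11.29 in LSEC_3D_HLK, against 10.35, 10.35 and 10.23 in LSEC_3D_HL (0.90 ± 0.13, adjusted p = 0.000128). Cd68 read 9.50, 9.52 and 9.2, against 8.78, 8.92 and 8.44 (0.69 ± 0.16, adjusted p = 0.00666). Neither overlapped. Lcp1 was lower, at 7.04, 6.70 and 6.04 in LSEC_3D_HLK against 7.87, 7.85 and 8.06 in LSEC_3D_HL (-1.33 ± 0.24, adjusted p = 0.000993), as was Gpnmb (-0.79 ± 0.15, adjusted p = 0.00133). Without LSEC_3D_HL replicate 3 the count of higher genes was 1.

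The KC-labelled fraction was also set against the LSEC-labelled fraction of the same models. It was higher for 5 of the 31 genes, where 5.35% of all genes were higher, and lower for 1, where 9.73% were lower. Cd5l read 6.18 and 6.91 in the KC-labelled fraction, against 5.72, 5.46 and 5.99 in LSEC_3D_HLK (0.82, adjusted p = 0.0167), and Adgre1 read 4.81 and 5.95, against 4.68, 4.44 and 4.70 (0.78, adjusted p = 0.0236). Neither overlapped. Gpnmb (1.20), Lgals3 (1.10) and Lcp1 (0.98) were higher as well, and Cd14 was lower (-0.83, adjusted p = 0.000355). Clec4f read 6.48 and 6.77, against 6.53, 6.44 and 6.74 in LSEC_3D_HLK, and Cd68 read 9.57 and 9.40, against 9.50, 9.52 and 9.2, so that for both the arrays overlapped. The count of 5 fell to 3 without KC_3D_HLK replicate 2 or without LSEC_3D_HLK replicate 2. Endothelial markers were higher in the KC-labelled fraction for 6 of 9 and hepatocyte markers lower for 7 of 9, and their part was not tested.

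The change with KCs differed between the hepatocyte and LSEC-labelled fractions for 13 of the 31 genes by the test of the interaction. It was greater in the hepatocyte fraction for 12, where 6.81% of all genes were, and smaller for 1, where 3.51% were. The median difference of changes was 0.58, against -0.11 over all genes. Mrc1 had the largest, 2.18 ± 0.44 (adjusted p = 0.00208), followed by Adgre1 (1.47, adjusted p = 0.00172), Aif1 (1.46, adjusted p = 0.00296) and Cd5l (1.37, adjusted p = 0.00314). Lcp1 (1.37, adjusted p = 0.0106) was among the 12 because it was lower in LSEC_3D_HLK than in LSEC_3D_HL, its change in the hepatocyte fraction being 0.04. Cd14 was the gene with the smaller change in the hepatocyte fraction (-0.80, adjusted p = 0.00735). For Lyz2 the difference of 1.92 missed the threshold (adjusted p = 0.0801). The count of 12 was 7 without Hep_3D_HLK replicate 3.

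**Figure D4:**
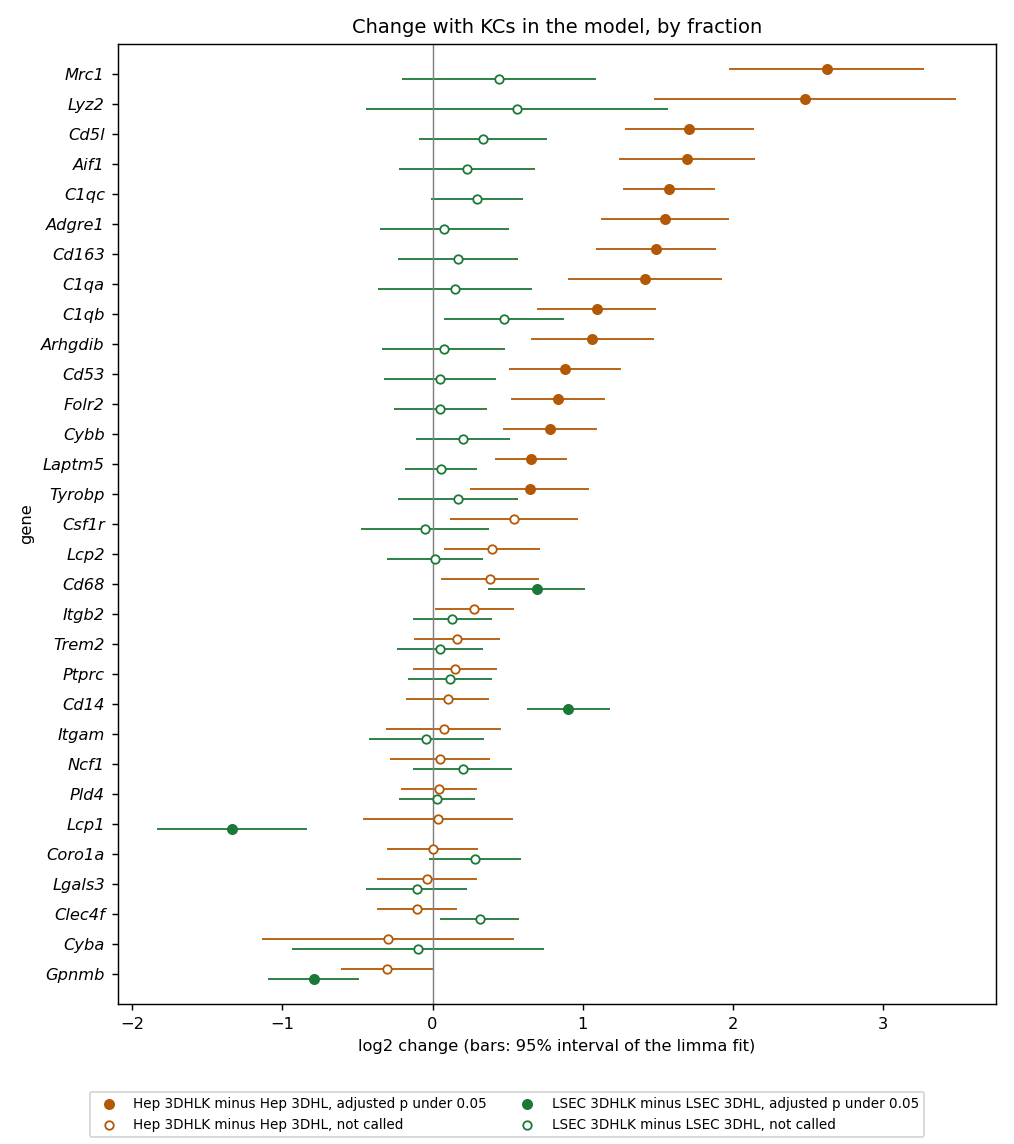
Log2 change with KCs in the model, with 95% intervals, for the 31 macrophage genes in the hepatocyte fraction (Hep_3D_HLK minus Hep_3D_HL) and the LSEC-labelled fraction (LSEC_3D_HLK minus LSEC_3D_HL). The hepatocyte changes lie between -0.30 and 2.62, with Mrc1 at the top, and the LSEC changes between -1.33 and 0.90.

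Of the genes, 8 had further probe sets, and several of these read differently. In the hepatocyte comparison another probe set of Laptm5 changed by 1.99 (adjusted p = 5.12e-07) and one of Cybb by 1.32 (adjusted p = 8.91e-05), both more than the probe set used. Ptprc, not called with the probe set used, changed by 1.35 with another (adjusted p = 2.7e-06), as did Trem2 by 0.65 (adjusted p = 0.00142) and Lcp2 by 0.53 (adjusted p = 0.0232). Cd5l changed by 0.48 with its other probe set (adjusted p = 0.0934), and Aif1 by -0.19 with one whose KC monolayer mean was only 6.81. In the KC-labelled fraction against background the calls for Laptm5 (0.12), Lcp2 (0.17), Cybb (0.13) and Ptprc (0.11) were lost with another probe set, whereas those of Cd5l (0.93, adjusted p = 0.000277) and Trem2 (0.31, adjusted p = 0.0453) held. For Cyba the direction turned, with 0.69 (adjusted p = 0.0009) in place of -0.84. Between Hep_3D_HLK and the KC-labelled fraction the other probe set of Ptprc was 1.24 higher in Hep_3D_HLK (adjusted p = 1.09e-05) and that of Cd5l 0.51 lower (adjusted p = 0.0374), opposite to the probe sets used. In the same comparison Trem2 differed by 0.16 in place of -0.65 (adjusted p = 0.368), Cyba by -0.79 in place of 0.91 (adjusted p = 0.000694), Aif1 by -0.37 in place of 1.63 and Laptm5 by 1.78 in place of -0.03.

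Other genes of the phagocyte programme were read in the same comparisons. Between Hep_3D_HLK and Hep_3D_HL, 7.72% of all genes were higher and 3.76% lower. Of 13 Fc receptors and myeloid kinases 3 were higher in Hep_3D_HLK than in Hep_3D_HL and none lower, led by Fcer1g, the shared signalling chain of Fc receptors. It read 8.71, 9.27 and 9.67 in Hep_3D_HLK, against 6.70, 7.42 and 6.93 in Hep_3D_HL (2.19, adjusted p = 0.00011). Of 16 lysosomal genes 2 were higher and 1 lower, and Ctss, the cathepsin of antigen-presenting cells, read 9.81, 9.46 and 9.92, against 6.24, 7.60 and 7.01 (2.78, adjusted p = 1.3e-05). Neither Fcer1g nor Ctss overlapped. Of 14 chemoattractant and pattern receptors 6 were higher, with Tlr4, the LPS receptor, at 2.96 and the lectin Clec4a3 at 2.16. Of 12 macrophage transcription factors 4 were higher, including Irf8 and Tfec (1.79 each), and 1 lower, Runx1 (-0.43). Of 10 genes for uptake of dead cells and for scavenging 5 were higher, with the scavenger lectin Colec12 at 3.56 and the receptor kinase Axl at 2.87. Colec12 averaged 9.0 in Hep_3D_HLK and 5.21 in the KC monolayers of day 3, and the source of its signal in the fraction was not tested.

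Against the KC monolayers the KC-labelled fraction was lower for 12 of the 13 Fc receptors and kinases, with Fcer1g at -7.79 and Fcgr1a, a high-affinity IgG receptor, at -5.24, and higher for Fcgr2b (0.46), an inhibitory Fc receptor that LSECs also carry, where 20.8% of all genes were lower and 44.5% higher. Receptors for chemoattractants and patterns were lower for 13 of 14, led by the glucan receptor Clec7a (-6.39). Lysosomal genes were lower for 12 of 16, with Ctss at -6.52 and the protease Ctsd at -2.66, and higher for 3, among them Lamp2 (1.09) and Neu1 (0.96). Of 12 transcription factors 9 were lower (Tfec -5.32, Zeb2 -4.71) and Batf3 higher (0.62). Of the 10 scavenging genes 4 were lower, with Axl at -5.68 and the scavenger receptor Stab1 at -3.32, and 2 higher, the fatty acid receptor Cd36 (2.15) and the bridging ligand Gas6 (1.18). Against background the fraction held 4 higher Fc receptors and kinases of 13, 4 chemoattractant and pattern receptors of 14, 3 transcription factors of 12, 3 scavenging genes of 10 and 1 lysosomal gene of 16, next to the 20.6% of all genes that were higher. It was lower for 7 of the 16 lysosomal genes, 4 of the 12 transcription factors, 4 of the 10 scavenging genes, 1 of the 13 Fc receptors and kinases and none of the 14 receptors, next to 20.8% of all genes.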

How the data were processed

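Total RNA of 23 rat samples was hybridized to Affymetrix rat genome arrays. The deposited values are log2 signals of 31099 probe sets, which the authors made by RMA (background correction, quantile normalization and summarization) after quality control with Simpleaffy. The RMA version was not stated in the sources read. Quantile normalization draws all arrays towards 1 distribution, so a shift of most genes in the KC monolayers would be partly removed. Array number and not depth limits the precision.

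Gene names came from the platform annotation, in which 20832 probe sets name 1 gene and 436 several. The probe set with the highest mean stood for each of 14218 genes. Means of the 8 groups were fitted over all arrays with limma 3.58.1 (R 4.3.3, lmFit, contrasts, eBayes, two-sided), p-values were adjusted by Benjamini-Hochberg over all genes, and adjusted p under 0.05 was a call. Errors beside changes are SE. The code was tested on simulated data. At most 130 of the 31099 values were identical in any pair of replicates, so no replicate was a copy of another. Each array was counted separately, but this does not tell technical from biological replicates.

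By rule, every member was accounted for. Those higher in KC_3D_HLK than background or in Hep_3D_HLK than Hep_3D_HL were given for each array, and of other lists the largest changes were named. Members and lists were chosen with earlier results of these data known. Alternatives were a replicate block, only the arrays compared, the mean of all probe sets, other probe sets, a filter at the 30th percentile, cyclic loess, centring on 10 housekeeping genes, trended robust eBayes, a fit without KC monolayers and leaving out each replicate. Figures were drawn with matplotlib 3.10.9.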

Additional observations from a re-analysis of the deposited data

Results flagged for a closer look

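For 13 genes the change with KCs in the model differed between the hepatocyte fraction and the LSEC-labelled fraction by the interaction term of the fit, and each value here is the log2 change Hep_3D_HLK minus Hep_3D_HL less the log2 change LSEC_3D_HLK minus LSEC_3D_HL. Among receptors, the difference was 2.18 for Mrc1, 1.47 for Adgre1, 1.32 for Cd163 and 0.78 for Folr2, and for the secreted scavenger protein Cd5l it was 1.37. The complement chains C1qc and C1qa differed by 1.28 and 1.26. The cytoskeletal and membrane proteins Aif1, Arhgdib, Cd53 and Laptm5 differed by 1.46, 0.99, 0.83 and 0.60. For Lcp1 the difference was 1.37, with the change lying in the LSEC-labelled fraction (-1.33). Cd14 ran the other way, at -0.80, since it was higher in LSEC_3D_HLK than in LSEC_3D_HL and not in the hepatocyte fraction. No group held the 4 arrays needed to test for a single outlying array.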

How the results depend on the processing

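All 31 genes stayed lower in the KC-labelled fraction than in the KC monolayers, and higher in the KC monolayers than in background, under every alternative that kept them. The filter at the 30th percentile left 16 of the 31 genes, so its counts cover fewer genes. It used the mean over all arrays, and genes that passed through high KC monolayer arrays had to differ from them, so its counts support nothing. It gave 16 lower for the KC-labelled fraction against KC monolayers, 16 higher for KC monolayers against background, 9 higher for Hep_3D_HLK against Hep_3D_HL, 11 higher and 2 lower for Hep_3D_HLK against the KC-labelled fraction, 3 higher for the KC-labelled against the LSEC-labelled fraction and 5 higher for it against background.

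In that last comparison the count of lower genes was 1 under the replicate block, cyclic loess and the trended robust eBayes. Higher genes there numbered 9 with cyclic loess (17.6% of all genes higher) and 9 with the mean of all probe sets (21.2%). They numbered 11 with housekeeping centring (12.7%), 15 with only the arrays compared (30.8%) and 14 without the KC monolayers (29.9%). Leaving out each replicate gave 5 to 13 higher and 0 to 3 lower genes there, with the lowest counts without KC_3D_HLK replicate 2. The same step gave 14 to 16 higher for Hep_3D_HLK against Hep_3D_HL, 11 to 17 higher and 3 to 6 lower for Hep_3D_HLK against the KC-labelled fraction, 1 to 2 higher for LSEC_3D_HLK against LSEC_3D_HL, 3 to 5 higher for the KC-labelled against the LSEC-labelled fraction and 7 to 13 higher for the interaction. The change of Aif1 in Hep_3D_HLK reversed to -0.19 with its other probe set (adjusted p = 0.609). The cause was not tested.

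No pairing by replicate number was seen over all pairs of groups pooled, with KC_3D_HLK left out. Fractions of the same models were not examined apart, so the check cannot decide whether those arrays were paired. Deviations of same-numbered arrays had a mean correlation of -0.029 over 63 pairs (-0.355 to 0.335), and in 16 of 63 comparisons of an array with another group it correlated best with its own number. With the block 15 genes were higher in Hep_3D_HLK than in Hep_3D_HL, and apart from the count of 1 given above no count of calls moved by more than 1.5 times.

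Centring on housekeeping genes changed the share of higher genes among all calls to 48.0% from 68.2% for the KC-labelled fraction against KC monolayers (56.7% with cyclic loess), to 34.4% from 49.8% for it against background, to 50.8% from 36.1% for KC monolayers against background and to 54.9% from 66.0% for the interaction. Cyclic loess changed it to 77.8% from 67.2% for Hep_3D_HLK against Hep_3D_HL, and to 45.2% from 35.5% for the KC-labelled against the LSEC-labelled fraction. A fit without the KC monolayer arrays moved the same share to 48.8% for Hep_3D_HLK against Hep_3D_HL and to 46.4% for the interaction. With it 10.9% of all genes were lower in Hep_3D_HLK than in Hep_3D_HL, 8.73% were higher and 7.69% lower in LSEC_3D_HLK than in LSEC_3D_HL, and 11.1% were higher in the KC-labelled than in the LSEC-labelled fraction, so the shares of all genes beside those counts depend on this choice. The median of all genes moved to -0.05 from 0.27 for the KC-labelled fraction against KC monolayers and to 0.04 from -0.24 for KC monolayers against background with housekeeping centring.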
